A study of Mus musculus with 2 samples.

Results

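Immediate early genes are the genes that a cell transcribes first after a stimulus, before any new protein is needed. The growth factor and calcium pathways that end on SRF, its Elk partners and CREB switch them on within minutes, and their products (AP-1 subunits, zinc finger factors, orphan nuclear receptors and the synaptic protein Arc) then act on later genes or at synapses. In neurons they report synaptic activity, and in any cell they also respond to enzymatic dissociation of a tissue, so in single-cell data their levels are read together with how the cells were prepared.

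The members are 10 genes chosen by symbol: the AP-1 subunits Fos, Fosb, Fosl2, Jun and Junb, the zinc finger factor Egr1, the nuclear receptors Nr4a1 and Nr4a3, the neuronal transcription factor Npas4 and Arc, of 32285 genes in the tables. They were measured in single cells of embryonic day 18.5 mouse forebrain in 2 droplet libraries, 1 labelled Cyfip2 knockout and 1 labelled wild type. Each library combined 2 forebrains of 1 genotype that had been kept in papain for 20 min at 37 °C. Each group is therefore 1 library of pooled animals, no test between genotypes is possible, and every interval below covers counting error only.

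Cells were barcodes with at least 1000 unique molecular identifiers (UMIs), at least 500 genes and at most 10% mitochondrial UMIs, which gave 12855 cells in the knockout-labelled library and 9086 in the wild-type library. After doublets were left out, 11533 and 8426 cells were kept, with a median of 7787 UMIs in the knockout-labelled library and 9567 in the wild-type library. The libraries shared 32 cell barcodes. Excitatory neurons made up 49.8% of the cells in the knockout-labelled library and 54.6% in the wild-type library, GABAergic neurons 31.2% and 24.6%, and progenitors 12.2% and 14.8%. The 8 excitatory markers summed to 3687 CPM (UMIs of a gene scaled to the summed UMIs of the cells) in knockout-labelled and 3749 CPM in wild-type excitatory neurons, with 0 of them at 0 UMIs, and the 7 GABAergic markers to 27.6 and 13.6 CPM there. Cyfip2 itself, a subunit of the WAVE complex that controls actin, was at 84.4 CPM in the knockout-labelled library and 84.9 CPM in the wild-type library. It was at 93.3 and 105 CPM in excitatory neurons (log2 ratio -0.17), at 78.8 and 86.6 CPM in GABAergic neurons (-0.14) and at 65.0 and 38.9 CPM in progenitors (0.74). These are tags of transcripts, the deleted part of the gene is not given in the sources used here, and a tag outside it checks nothing, so the knockout-labelled library is named by its label throughout.

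The bases before the annotated starts of Fos, Jun and Nr4a3, the members whose levels the results below turn on, are shown because the cAMP response element half-site TGACG, which CREB can bind, is unevenly spread over them. The windows are RefSeq sequences on GRCm38.p6, given 5′ to 3′ on the gene's strand. Capitals mark TGACG or its reverse complement CGTCA.
Fos, chr12:85473640-85473889, plus strand: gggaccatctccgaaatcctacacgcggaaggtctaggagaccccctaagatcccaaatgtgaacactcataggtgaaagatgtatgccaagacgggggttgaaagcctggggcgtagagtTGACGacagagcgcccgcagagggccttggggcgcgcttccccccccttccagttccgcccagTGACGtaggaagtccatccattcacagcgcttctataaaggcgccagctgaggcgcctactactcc
Jun, chr4:95052223-95052472, minus strand: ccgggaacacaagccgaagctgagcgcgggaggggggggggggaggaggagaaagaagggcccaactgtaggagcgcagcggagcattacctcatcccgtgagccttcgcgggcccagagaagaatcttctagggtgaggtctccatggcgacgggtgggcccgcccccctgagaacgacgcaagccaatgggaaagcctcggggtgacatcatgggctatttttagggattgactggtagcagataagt
Nr4a3, chr4:48045055-48045152, plus strand: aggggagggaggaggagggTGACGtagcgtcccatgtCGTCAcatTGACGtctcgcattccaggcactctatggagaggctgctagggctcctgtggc
The Fos window held 2 half-sites in 250 bases, the Jun window 0 in 250 bases, and the Nr4a3 window, which ends where the annotated gene begins, 3 in 98 bases. Promoters were on file for 8 of the 10 members, and Egr1 and Arc were not searched. Over the 250 bases before each RefSeq start, on both strands, 6 of these 8 held the half-site (Fos, Fosb, Junb, Npas4, Nr4a1 and Nr4a3), against 17.8% of 32851 promoters. The full element TGACGTCA (1.55% of promoters) and the AP-1 element TGANTCA (6.75%) were found in 0 of the 8, and TATAAA (12.4%) in 1, that of Fos. The CArG box, the core of the serum response element (1.47%), was also found in 0 of the 8. A match is a description of the letters in the window and not a site shown to be used.

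Microglia and border macrophages carried the members at a higher summed level than any of the 15 neuron, progenitor and unnamed classes with 50 or more cells per library. The summed CPM of the 10 genes was 5115 in the knockout-labelled library and 5273 in the wild-type library for these cells (142 and 68 cells). It was 813 and 767 CPM in GABAergic neurons, 713 and 755 CPM in progenitors, and 311 and 326 CPM in excitatory neurons. The order of these 4 classes was the same in both libraries.

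**Figure D1:**
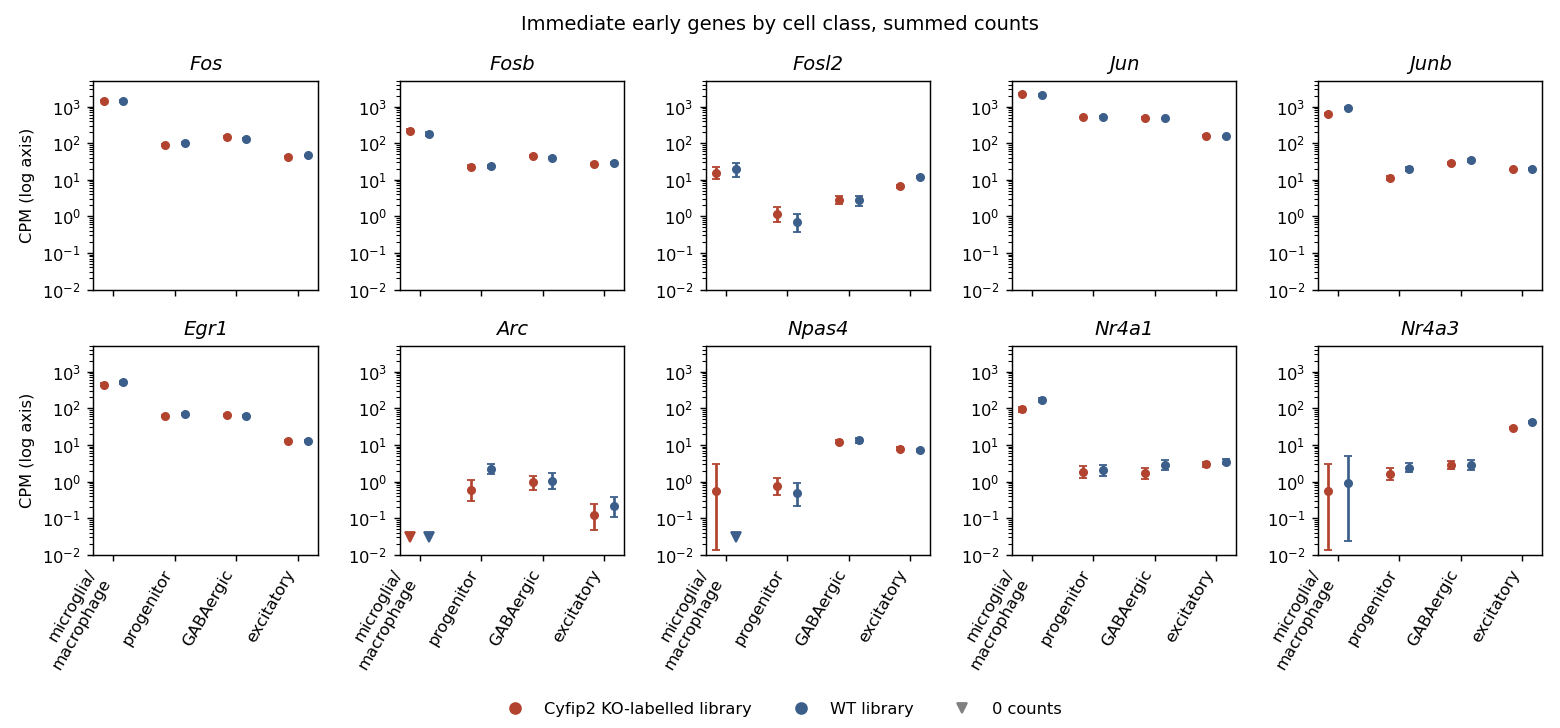
CPM on a log axis of each of the 10 genes in 4 cell classes, for the Cyfip2 knockout-labelled library and the wild-type library; bars are exact 95% Poisson intervals and triangles mark sums of 0 UMIs. Fos, Fosb, Jun, Junb, Egr1 and Nr4a1 are highest in microglia and macrophages, whereas Nr4a3 is highest in excitatory neurons and Npas4 in GABAergic neurons.

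The members fell into patterns that differ by cell class. Fos, the inducible partner of Jun in AP-1, was at 1450 CPM in the knockout-labelled and 1401 CPM in the wild-type microglia and macrophages, and at 42.6 and 46.4 CPM in excitatory neurons. Nr4a1, a nuclear receptor that immune cells induce on stimulation, was at 93.5 and 172 CPM in microglia and macrophages and under 4 CPM in the excitatory, GABAergic and progenitor sums of either library. Npas4, whose transcription in neurons follows calcium entry, ran the other way: it was at 12.4 and 13.3 CPM in GABAergic neurons and 7.78 and 7.10 CPM in excitatory neurons, against 1 UMI in all knockout-labelled microglia and macrophages and 0 UMIs in those of wild type. Arc, an activity-induced protein of dendrites, had 47 UMIs in the whole knockout-labelled library and 90 in the wild-type library. No Arc UMI was seen in microglia and macrophages, where 3 counts would be 1.60 CPM in the knockout-labelled and 2.77 CPM in the wild-type library.

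Within neurons and progenitors the caudal or lateral eminence interneurons stood highest in both libraries. Their summed member level was 1359 CPM in the knockout-labelled library and 1198 CPM in the wild-type library, while cluster 2 of the excitatory neurons (led by Ntf3 and Cbln2) had 175 and 186 CPM and the deep-layer neurons 208 and 230 CPM. The next class was dividing progenitors in the knockout-labelled library (871 CPM knockout-labelled, 776 CPM wild type). In the wild-type library it was the radial glia cluster (662 CPM knockout-labelled, 918 CPM wild type). That wild-type sum includes 18 cells, described below, with low levels of radial glia genes. They held 309 Fos, 453 Jun, 208 Junb and 299 Egr1 of the 5119 member UMIs of the class, so this rank rests in part on them. The lowest class was unnamed cluster 20 (144 and 130 CPM). Jun, the AP-1 subunit that can act without Fos, was at 870 and 812 CPM in these interneurons and 86.6 and 70.1 CPM in deep-layer neurons. Fos was at 259 and 189 CPM in the interneurons and 15.6 and 14.0 CPM in deep-layer neurons. The median depth was 4343 and 5006 UMIs per cell in these interneurons, and 15397 and 18203 in deep-layer neurons, so of this pair the class with the higher CPM was the shallower. Depth is given for further classes as well. Unnamed cluster 20, the lowest class, had a median of 2195.5 and 2215 UMIs. Cluster 1 of the excitatory neurons had 4385.5 and 5159 UMIs and a summed member level of 369 and 431 CPM. The part of depth in this order was not tested.

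The genes whose levels followed a member most closely over 30 sums (15 classes in 2 libraries) were found by the Pearson correlation of log2(CPM + 10) among 9600 genes. For Fos these were Jun (0.89), Ints6l (0.86) and Stx5a (0.86). Jun was most like Kat2b (0.93), Arfgap2 (0.93) and Zc3h12c (0.93), Egr1 most like Ctnnbl1 (0.92), Jun (0.91) and Sox2 (0.91), and Junb most like Lgi1 (0.72), Mef2a (0.71) and Trhde (0.70). The sums of 1 library share their depth and preparation, so these values are descriptions.

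Fos UMIs were unevenly spread over cells. Over all cells the 1% with the most Fos UMIs held 36.1% of them in the knockout-labelled library and 32.3% in the wild-type library, and microglia and macrophages alone held 2713 of 11519 and 1519 of 9028. Within excitatory neurons the top 1% held 15.8% and 18.1% of Fos UMIs, and within GABAergic neurons 20.1% and 14.9%. The share within these neurons was smaller than over all cells in both libraries, and so was that within progenitors (25.4% and 27.6%). Within radial glia it was 41.1% in the knockout-labelled library, above the share over all cells, and 31.6% in the wild-type library. The part of class levels in this spread was not tested. Such shares also depend on how many UMIs a gene has, so they were not compared between genes.

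After each cell was thinned to 1000 UMIs, so that depth was equal, a Jun UMI was seen in 15.8% of knockout-labelled excitatory neurons (95% exact binomial interval 14.9 to 16.8) and in 15.9% of wild-type ones (14.9 to 17.0). Without thinning the shares were 55.0% and 58.3%. Fos was seen in 5.24% of knockout-labelled (4.68 to 5.85) and 5.83% of wild-type excitatory neurons (5.17 to 6.55), and unthinned in 26.5% and 30.0%. In GABAergic neurons Fos was seen in 12.4% and 12.6% of thinned cells. The intervals of these thinned shares overlap between the libraries, whereas those of the unthinned shares of Jun and Fos in excitatory neurons, taken at unequal depth, do not. Nr4a3 was seen in 2.33% of knockout-labelled (1.96 to 2.76) and 3.33% of wild-type excitatory neurons (2.83 to 3.89), and these intervals do not overlap. Unthinned the shares were 14.3% and 19.9%. The share of all genes with intervals that do not overlap was not computed, and cells of 1 library are not replicates. Cluster 12, described below, held 400 of the 5742 knockout-labelled and 368 of the 4597 wild-type excitatory neurons. In GABAergic neurons, where Nr4a3 was low and free RNA sets a background, Nr4a3 was seen in 0.389% and 0.434% of thinned cells. The median depth before thinning was 8505 and 10441 UMIs in excitatory neurons and 5999 and 6988 in GABAergic neurons.

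**Figure D2:**
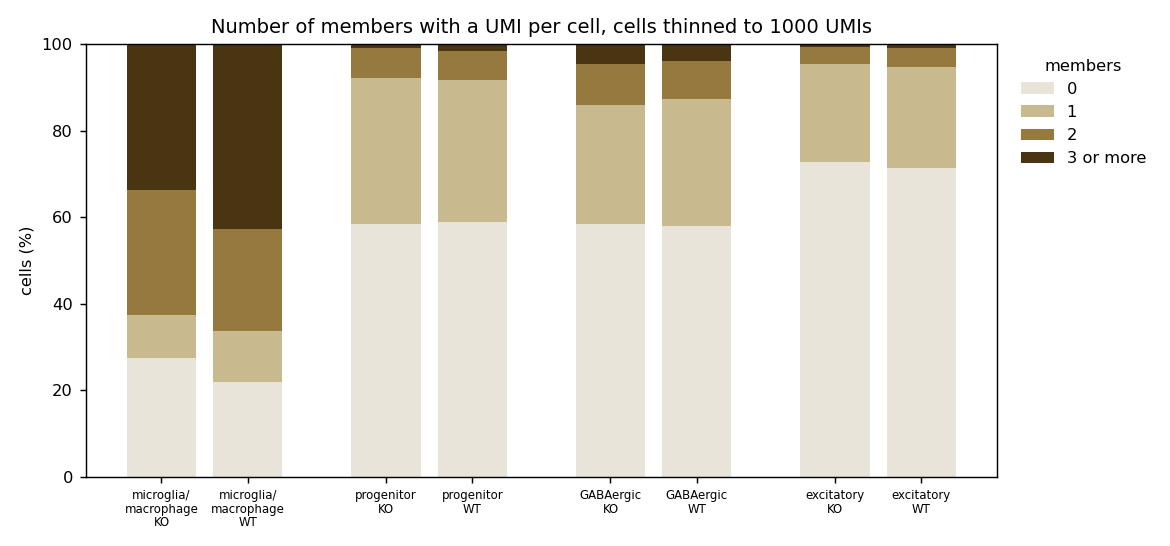
Share of cells in percent with a UMI of 0, 1, 2 or at least 3 of the 10 genes after thinning to 1000 UMIs, for 4 cell classes and each library. Cells with at least 3 members make up 33.8% and 42.6% of microglia and macrophages and under 5% of each other class shown.

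Several pairs of members were found together in the same cells more often than their shares within each cluster gave. In GABAergic neurons Fos and Egr1 were seen together in 96 knockout-labelled cells where 33.6 were expected from independent detection (2.86 times), and in 40 wild-type cells where 15.7 were expected (2.55 times). Fosb and Egr1 were together 3.58 times and 3.17 times as often as independent detection gave, and Fos and Jun 1.74 and 1.67 times. In excitatory neurons Fos and Jun were together in 102 knockout-labelled cells against 62.6 from independent detection, and in 83 wild-type cells against 55.5. Jun and Nr4a3 were together in 13 knockout-labelled excitatory neurons where 15.3 were expected, and in 20 wild-type ones where 17.3 were expected, close to independence in both libraries. Cells with at least 3 members were 4.53% and 3.91% of GABAergic neurons, 0.766% and 0.892% of excitatory neurons and 0.925% and 1.60% of progenitors, with intervals that overlap between the libraries in each class.

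Free RNA held every member. In barcodes under 100 UMIs, Fos was at 95.4 CPM in the knockout-labelled library and 87.7 CPM in the wild-type library, against 105 and 92.8 CPM over all cells. Jun was at 240 and 232 CPM there, 0.70 and 0.75 of its level in cells, and Fosb at 0.66 and 0.57 of its level in cells. Nr4a3 was at 12.3 and 21.8 CPM there, a log2 ratio of -0.83 (95% interval -1.39 to -0.27). Haemoglobin genes put the share of free RNA among the UMIs of neurons and progenitors at 1.59% to 4.38% in the 3 large classes.

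Between the genotypes, Arc, Fosl2 and Nr4a3 were lower in the knockout-labelled library over all cells, and the other members differed by less than 1.5-fold. Arc had 47 UMIs in the knockout-labelled and 90 in the wild-type library, a log2 ratio of -1.11 (-1.65 to -0.59). Nr4a3 was at 17.3 and 26.2 CPM (-0.60, -0.68 to -0.51). Arc and Fosl2 lay under the minimum level set for calls. Of the 10 genes, 6 reached the minimum of 20 CPM in either library and 100 UMIs together. A gene was called where it differed by at least 1.5-fold with an interval that left out 1, a size rule that tests nothing. By this rule 0 members were higher, where 0.442% of 7012 measured genes were, and 1, Nr4a3, was lower, where 0.0998% were. Nr4a3 reached 20 CPM only in the wild-type library, so it could only be called lower, and the call is a description. The Nr4a3 call, close to 1.5-fold, was lost with median-of-ratios size factors (-0.58), with doublets kept (-0.57) and with equal cluster weights (-0.27). Intervals lay above 0 for 4 members (17.2% of measured genes) and below 0 for 1 (31.7%), and the median log2 ratio was 0.11 over the members and -0.02 over all measured genes.

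Among the AP-1 subunits, Fos was at 105 CPM in the knockout-labelled library and 92.8 CPM in the wild-type library, a log2 ratio of 0.18 (0.14 to 0.22). Jun was at 345 and 310 CPM (0.15, 0.13 to 0.18), Fosb, which has a truncated stable form, at 33.9 and 30.9 CPM (0.13), and Junb, which can oppose Jun, at 33.8 and 33.5 CPM (0.01). Fosl2 ran the other way, at 5.16 and 8.29 CPM on 566 and 806 UMIs (-0.68, -0.84 to -0.53). These differences over all cells mix classes whose shares differ between the libraries. With every cluster given the same weight in both libraries the log2 ratio of Jun was 0.02 and that of Fos 0.09.

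In excitatory neurons 4 members were measured and 0 were called, where 0.148% of 6766 genes were called higher and 0.0739% lower. The interval was above 0 for Jun (162 CPM knockout-labelled, 153 CPM wild type, log2 ratio 0.08; 14.9% of genes lay above 0). It was below 0 for Fos (42.6 and 46.4 CPM, -0.12) and Nr4a3 (30.0 and 42.5 CPM, -0.50, -0.59 to -0.42; 23.6% lay below 0). Fosb was at 27.1 and 28.5 CPM, with an interval that held 0. Egr1 had 776 and 745 UMIs, a log2 ratio of 0.00, and Junb was at 19.1 and 19.3 CPM, both under the minimum level.

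In GABAergic neurons 5 members were measured and 0 were called, where 0.482% of 6844 genes were called higher and 0.117% lower. Fos was at 152 CPM in the knockout-labelled library and 132 CPM in the wild-type library (0.21, 0.13 to 0.29), Fosb at 44.6 and 39.6 CPM (0.17) and Jun at 500.1 and 476 CPM (0.07), each with an interval above 0, as for 11.2% of genes. With equal cluster weights Jun was at -0.023, and with doublets kept 1 member in place of 3 had an interval above 0. Junb was at 29.0 and 34.0 CPM (-0.23, -0.40 to -0.06), below 0 as for 15.3% of genes. Egr1, a zinc finger factor downstream of the ERK pathway, was at 66.7 and 62.8 CPM with an interval that held 0.

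**Figure D3:**
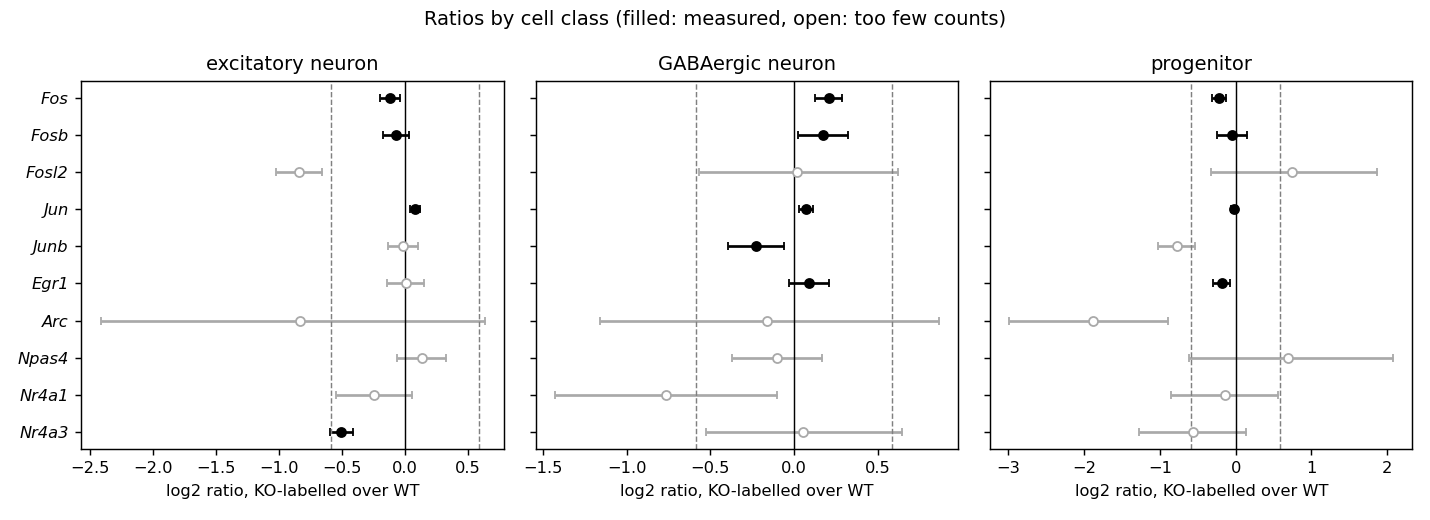
Log2 ratio of each gene, knockout-labelled over wild type, in excitatory neurons, GABAergic neurons and progenitors, with exact 95% counting intervals; dashed lines mark 1.5-fold, filled points reached the minimum level and the 3 panels have their own axes. Fos lies below 0 in excitatory neurons and above 0 in GABAergic neurons, and the measured genes lie inside the dashed lines in all 3 classes.

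Not every cluster followed its class. Fos was at 102 CPM in the knockout-labelled and 51.7 CPM in the wild-type cells of cluster 18, GABAergic neurons led by Sst and Zic1 (0.98, 0.60 to 1.38), and at 129 and 165 CPM in cluster 10, striatal neurons led by Isl1 (-0.36, -0.59 to -0.12). Over the 7 GABAergic clusters the Fos ratio was above 0 in 6, with 4 intervals above 0 and 1 below. Over the 11 excitatory clusters it was above 0 in 6 with 0 intervals, and below 0 in 5 with 4 intervals. Among these, Fos was at 33.9 CPM in the knockout-labelled and 52.0 CPM in the wild-type cells of cluster 9 (-0.62, -0.86 to -0.38), and at 40.1 and 61.5 CPM in cluster 11, led by Thsd7a and Tfap2d (-0.62, -1.05 to -0.16). Jun was at 564 and 821 CPM in cluster 10 (-0.54, -0.65 to -0.43) and at 430 and 359 CPM in cluster 0, interneurons led by Maf and Lhx6 (0.26, 0.17 to 0.35). Clusters 10, 11 and 18 held 604, 648 and 388 knockout-labelled cells against 194, 122 and 145 wild-type cells, so their shares of the libraries differ as well.

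Nr4a3, an orphan nuclear receptor, was under 4 CPM in the summed GABAergic neurons, progenitors, and microglia and macrophages of both libraries, and had the largest difference of the 4 members measured in excitatory neurons. Unnamed cluster 20 had 19.7 CPM in the knockout-labelled and 26.1 CPM in the wild-type library, on 13 and 15 UMIs. It was at 71.1 CPM in the knockout-labelled and 92.9 CPM in the wild-type migrating neurons, at 38.6 and 53.2 CPM in deep-layer neurons, and at 8.01 and 7.71 CPM in upper-layer neurons. Most of the migrating signal came from cluster 12, led by Cck and Calb2, which held 835 of the 870 knockout-labelled and 1140 of the 1194 wild-type UMIs of migrating neurons, with 171 CPM in 400 knockout-labelled cells and 213 CPM in 368 wild-type cells (-0.32, -0.45 to -0.19). The knockout-labelled cells were lower there, and lower again in cluster 13 (23.3 and 37.1 CPM, -0.67, -0.94 to -0.40) and cluster 2 (11.9 and 21.3 CPM, -0.84, -1.17 to -0.52). Over the 11 excitatory clusters 9 ratios were below 0, with 4 intervals, and 2 above, with 1 interval, that of cluster 14 (10.4 and 5.38 CPM, 0.95, on 32 and 14 UMIs). In GABAergic neurons Nr4a3 was at 2.88 and 2.78 CPM, with a UMI in 65 knockout-labelled and 34 wild-type cells before thinning. With equal cluster weights the excitatory log2 ratio was -0.30. The level in free RNA, given above, was lower in the knockout-labelled library too, and with free RNA subtracted the excitatory log2 ratio was -0.50.

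Fosl2, a Fos-related subunit without a strong activation domain, was higher in deep-layer neurons (16.3 CPM knockout-labelled, 41.6 CPM wild type) than in the other named neuron and progenitor classes. Unnamed cluster 20 (16.7 and 33.1 CPM, on 11 and 19 UMIs) and microglia and macrophages (15.5 and 19.4 CPM) were also above those classes. It was at 17.2 CPM in knockout-labelled and 41.1 CPM in wild-type cells of cluster 13, led by Nefl and Npy (-1.26, -1.56 to -0.97), and at 13.2 and 43.1 CPM in cluster 19, led by Hs3st4 and Tle4 (-1.71, -2.35 to -1.11). Both clusters were lower in the knockout-labelled library, on 131 and 29 UMIs against 348 and 109. In cluster 12 it was at 17.8 and 23.8 CPM (-0.42, -0.83 to -0.01). In cluster 9, led by Inhba and Mef2c, it was at 4.97 and 2.68 CPM (0.89, 0.07 to 1.74), the other way. Among the deep-layer genes as a whole, 0.0756% of 6614 were called lower, and Fosl2 was the 1 member called there. Fosl2 reached the minimum of 20 CPM in these neurons only in the wild-type library, so it could only be called lower.

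**Figure D4:**
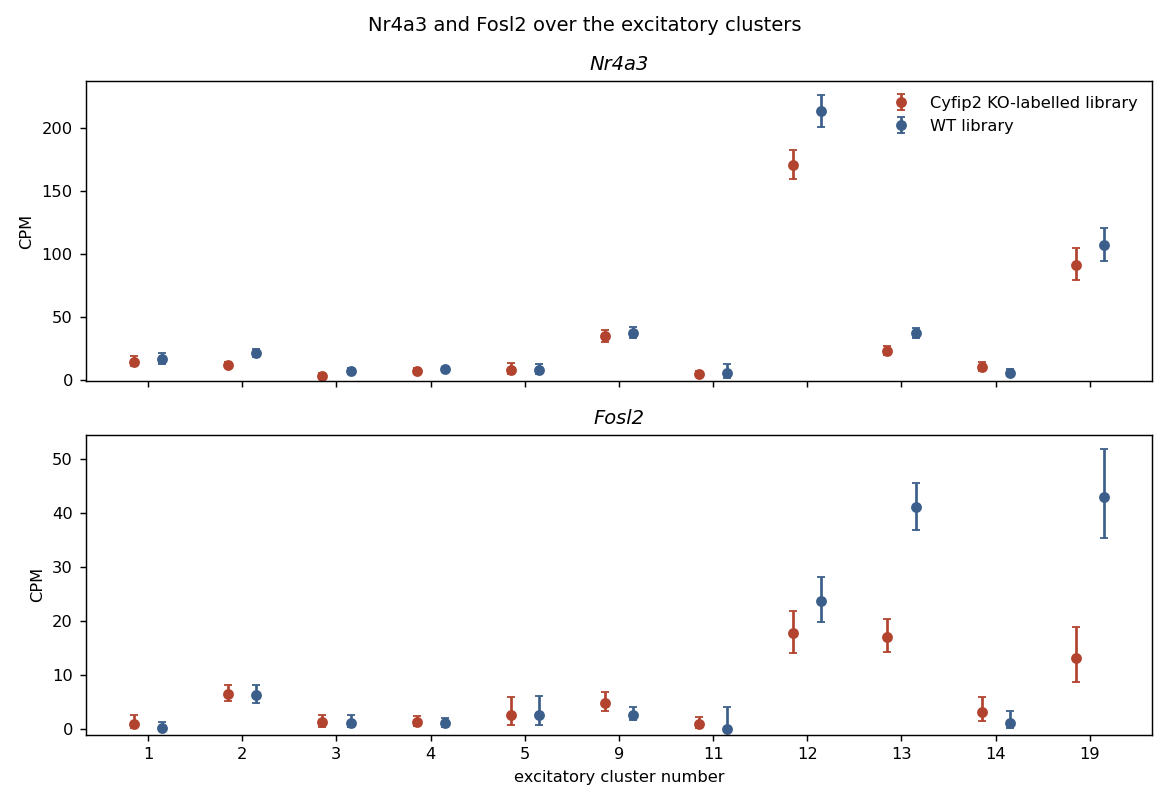
CPM of Nr4a3 (top) and Fosl2 (bottom) in each excitatory cluster for the knockout-labelled and the wild-type library, with exact 95% Poisson intervals. Nr4a3 is highest in cluster 12 (171 and 213 CPM), and Fosl2 is lower in the knockout-labelled cells of clusters 13 and 19.

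Npas4 did not reach the minimum level in excitatory neurons, GABAergic neurons or progenitors. In striatal projection neurons it was at 15.0 CPM in the knockout-labelled library and 21.2 CPM in the wild-type library (-0.50, -0.84 to -0.15). In cluster 9 of the excitatory neurons it was at 16.9 and 11.9 CPM (0.50, 0.10 to 0.91), and in upper-layer neurons at 8.31 and 5.74 CPM (0.53, 0.05 to 1.02). The direction therefore differed between these classes, and no difference between them was tested.

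In progenitors 4 members were measured and 0 were called, where 0.261% of 6906 genes were called higher and 0.319% lower. Fos was at 88.1 CPM in the knockout-labelled library and 102 CPM in the wild-type library (-0.22, -0.31 to -0.12) and Egr1 at 60.4 and 68.6 CPM (-0.19), both with intervals below 0, as for 19.3% of genes. Jun was at 524 and 533 CPM (-0.02) and Fosb at 22.7 and 23.5 CPM. Junb, under the minimum level, was at 11.4 and 19.5 CPM.

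The lower values of Fos and Egr1 in progenitors rested on 20 cells. Among radial glia 2 members, Junb and Egr1, were called lower, where 1.26% of 7168 genes were. Junb was at 6.05 CPM in the knockout-labelled library and 41.3 CPM in the wild-type library, Egr1 at 32.0 and 78.9 CPM and Fos at 106 and 155 CPM. Junb reached the minimum of 20 CPM only in the wild-type library, so it could only be called lower. Clustering at a finer resolution set apart 2 knockout-labelled and 18 wild-type cells led by Tph1, which starts serotonin synthesis, with Otx2 and Crx. In them Tph1 was at 1928 CPM, and the radial glia genes Fabp7 and Slc1a3 were at 133 and 9.18 CPM. In the radial glia without them Tph1, Fabp7 and Slc1a3 were at 0, 8759 and 646 CPM. The naming rule left these cells unnamed at the finer resolution. The 18 wild-type cells held 309 Fos, 208 Junb and 299 Egr1 UMIs, and the 2 knockout-labelled cells held 0 of each. Single cells weighed heavily here. Of all 353 wild-type radial glia, 2 cells held at least 50% of the 230 Junb UMIs, and 7 cells at least 50% of the 440 Egr1 UMIs.

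Without these cells, a choice made after the data were seen, Fos was at 107 CPM in radial glia of both libraries (interval of the log2 ratio -0.19 to 0.18). Junb was at 6.10 CPM in the knockout-labelled and 4.26 CPM in the wild-type library (0.52, -0.38 to 1.42), and Egr1 at 32.3 and 27.3 CPM (0.24, -0.12 to 0.60). Jun remained lower at 483 and 560 CPM (-0.22, -0.30 to -0.13). Over all progenitors without them, Fos was at 88.2 and 88.0 CPM (0.00), Egr1 at 60.5 and 54.1 CPM (0.16, 0.04 to 0.29) and Junb at 11.4 and 8.81 CPM (0.37, 0.07 to 0.68). The direction of Egr1 and Junb in progenitors was thus turned by 20 cells.

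**Figure D5:**
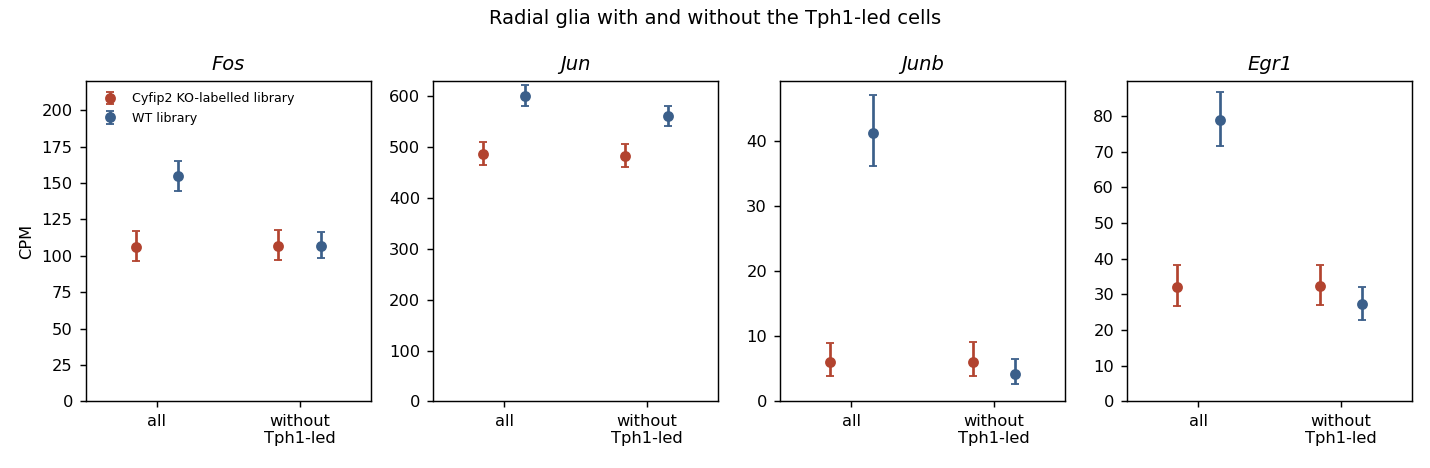
CPM of Fos, Jun, Junb and Egr1 in all radial glia and in radial glia without the 20 Tph1-led cells, for the knockout-labelled and the wild-type library, with exact 95% Poisson intervals. The wild-type levels of Fos, Junb and Egr1 drop when these cells are left out, and the knockout-labelled levels hardly move.

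Arc kept its direction. It had 11 UMIs in knockout-labelled progenitors and 41 in wild-type ones without the Tph1-led cells (0.60 and 2.20 CPM, -1.87, -2.98 to -0.89). This rests on few UMIs, and Arc did not reach the minimum level there.

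In microglia and macrophages 6 members were measured, 0 were higher, where 3.69% of 3929 genes were, and 1, Nr4a1, was lower, where 2.01% were. Nr4a1 was at 93.5 CPM in the knockout-labelled and 172 CPM in the wild-type library (-0.88, -1.18 to -0.57). At least 50% of its 175 and 186 UMIs lay in 7 knockout-labelled and 8 wild-type cells. After thinning it was seen in 5.63% (2.46 to 10.8) and 13.2% (6.23 to 23.6) of these cells, and the intervals overlap. Junb was at 624 and 897 CPM (-0.52, -0.65 to -0.40). Jun was at 2263 and 2086 CPM (0.12, 0.04 to 0.19), Fosb at 221 and 180 CPM (0.29, 0.05 to 0.55) and Egr1 at 448 and 518 CPM (-0.21, -0.36 to -0.05). Intervals lay above 0 for 2 members (9.24% of genes) and below 0 for 3 (7.28%). Members of the AP-1 group thus lay on both sides of 0 in the same cells. In microglia alone (74 and 42 cells) Nr4a1 was at 84.1 and 214 CPM (-1.35, -1.82 to -0.89), and in border macrophages (68 and 26 cells) at 99.98 and 133 CPM, with an interval that held 0.

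Vascular cells were too few to rank, at 69 knockout-labelled and 33 wild-type cells. All 4 members measured in them were lower by the size rule, where 14.3% of 2796 genes were: Fos at 165 and 668 CPM, Egr1 at 55.3 and 289 CPM, Jun at 363 and 648 CPM, and Junb at 232 and 414 CPM. The make-up differed, with 43 knockout-labelled and 7 wild-type cells in the cluster led by the endothelial gene Cldn5, and 26 and 26 cells in that led by the pericyte gene Rgs5. Within the Rgs5 cluster Fos was at 430 and 723 CPM (-0.75, -1.10 to -0.42), Jun at 442 and 622 CPM (-0.49, -0.84 to -0.15) and Egr1 at 172 and 332 CPM (-0.95), while Junb was at 479 and 427 CPM (0.17, -0.20 to 0.53). Within the Cldn5 cluster the log2 ratios were -1.96 for Fos, -1.21 for Jun and -1.07 for Junb, against 7 wild-type cells. Single cells weighed heavily, with 65 of the 188 knockout-labelled and 82 of the 266 wild-type Fos UMIs in 1 vascular cell each.

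Meningeal fibroblasts (33 knockout-labelled and 18 wild-type cells) also carried the members at a high level, with 2581 and 2340 CPM summed over the 10 genes. Fos was at 808 CPM in the knockout-labelled and 751 CPM in the wild-type fibroblasts, with an interval that held 0. Fosb was at 252 and 92.5 CPM (1.45, 0.90 to 2.03), the 1 member called higher there, where 7.84% of 1620 genes were. Cajal-Retzius cells (59 and 38 cells) were low, with 196 and 198 CPM summed.

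Lists of genes of the same pathways were drawn up beside the members. In excitatory neurons 0 genes of any list were called, where 0.148% of 6766 measured genes were called higher and 0.0739% lower. Of 22 other early transcription factors 6 were measured, with 1 interval above 0 and 3 below and a median of -0.03, against -0.02 over all genes. Over all genes measured in excitatory neurons, 14.9% of intervals lay above 0 and 23.6% below, which are the shares to read beside the counts of each list. The lowest were Ier5 (152 CPM knockout-labelled, 196 CPM wild type, -0.37) and Ier2 (51.8 and 59.9 CPM, -0.21), and the highest were Myc (20.9 and 18.2 CPM, 0.20) and the antiproliferative factor Btg2 (42.0 and 40.1 CPM, 0.07). Of 15 feedback genes 5 were measured, with 1 above and 3 below and a median of -0.10. The MAP kinase phosphatases Dusp6 (23.3 and 25.2 CPM, -0.12) and Dusp4 (38.0 and 41.2 CPM, -0.11) were the lowest, and the NF-kappaB inhibitor Nfkbia (30.6 and 28.1 CPM, 0.13) and the phosphatase Dusp1 (33.2 and 35.5 CPM, -0.10) the highest.

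Of 13 activity-regulated effectors 5 were measured, with 1 interval above 0 and 3 below and a median of -0.06. The kinase Plk2 (122 CPM knockout-labelled, 141 CPM wild type, -0.20) and the synaptic scaffold Homer1 (79.4 and 85.9 CPM, -0.11) were the lowest, and the activin subunit Inhba (47.4 and 43.6 CPM, 0.12) and Nrn1 (60.5 and 59.1 CPM, 0.03) the highest. Of 15 upstream factors and kinases 10 were measured, with 1 above and 4 below and a median of -0.05. The CREB coactivator Crtc1 (30.6 and 35.1 CPM, -0.20) and Mef2d (24.3 and 26.0 CPM, -0.10) were the lowest, and Creb1 (85.3 and 77.4 CPM, 0.14) and Elk1 (20.8 and 19.6 CPM, 0.08) the highest. Of 12 heat shock genes, which also respond to handling of cells, 9 were measured, with 3 above and 1 below and a median of 0.01. The chaperones Hsph1 (101 and 85.2 CPM, 0.25) and Hspa8 (1997 and 1838 CPM, 0.12) were the highest, and Dnajb1 (31.2 and 31.7 CPM, -0.02) and Hsp90ab1 (2761 and 2801 CPM, -0.02) the lowest.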

How the data were processed

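Droplet libraries of embryonic day 18.5 forebrain were analysed from the deposited raw count matrices (UMI counts per gene and barcode), made by the authors with Cell Ranger 4, per the file headers, on mm10, per the submitters' processing notes. The totals were 150828048 counts in the knockout-labelled and 123978461 in the wild-type library. Cells were filtered as in the report, doublets were marked with Scrublet in scanpy 1.11.5 (1322 knockout-labelled and 660 wild-type cells left out), and cells were clustered together by Leiden (leidenalg 0.10.2, resolution 1) on 2000 variable genes, without the members and the other lists. The rule that names clusters from fixed markers was revised after the clusters were seen. Counts were summed per class and library and scaled to CPM, with exact Poisson and ratio intervals at 95% confidence, which cover counting error only. On data simulated from the excitatory neurons (6718 genes, 200 changed), the size rule found all 94 genes changed 2-fold and called 0 unchanged ones. The simulated counts were Poisson draws, the model behind the intervals, so this checks the computation only. It does not cover UMIs clumped in few cells or differences between animals. The members and lists were chosen with earlier results of these data known. All members are named, and of each other list the 2 highest and 2 lowest ratios among measured genes in excitatory neurons; the 3 most similar genes are named for the 4 members with the most UMIs. The clusters singled out in the text were chosen after their values were seen.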

Additional observations from a re-analysis of the deposited data

Results flagged for a closer look

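The ratio of Fos had intervals on opposite sides of 0 in 2 pairs of cell classes. It was 0.21 in GABAergic neurons and -0.12 in excitatory neurons (log2, knockout-labelled over wild type), a difference of 0.33. It was 0.21 in GABAergic neurons and -0.22 in progenitors, a difference of 0.42. Neither difference was tested, because each genotype is 1 library. Without the 20 Tph1-led cells the ratio in progenitors was 0.00, with an interval that held 0.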

How the results depend on the processing

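No paired analysis was possible because each genotype is 1 library with no shared replicate number, and no replicate could be left out. Of 178 log2 ratios under other settings 143 stayed close to the reported value, 28 moved and 7 reversed. Of 160 CPM levels 30 moved, and of 80 shares of cells 74 moved, each of these 74 when cells were not thinned. The number of members at least 1.5-fold lower over all cells, 1 as reported, was 0 with median-of-ratios size factors, with doublets kept, with equal cluster weights and with a 2-fold rule, and 3 with no filter on low genes; it went with Nr4a3, at -0.27 with equal weights. Over all measured genes, 7 of 7012 were lower as reported and 6 of 7014 with median-of-ratios size factors. With doublets kept 4 of 7034 were lower, and with equal weights 4 of 7012. Intervals below 0 over all cells, 1 member as reported, were 2 with equal weights and 3 with no filter. In excitatory neurons, intervals below 0 (2) were 1 with equal weights, intervals above 0 (1) were 0 at resolution 2 and 0 without cluster 11, and members lower by 1.5-fold (0) were 1 with no filter. In GABAergic neurons, intervals above 0 (3) were 1 with doublets kept, intervals below 0 (1) were 0 with equal weights and 2 with no filter, and members lower (0) were 1 with no filter. In progenitors, members lower (0) were 1 with a total that left out mitochondrial, haemoglobin and ribosomal protein genes, 1 with doublets kept and 2 with no filter; intervals below 0 (2) were 0 at resolution 2, 4 with no filter and 0 without the Tph1-led cells, and intervals above 0 (0) were 1 without those cells. The reversed ratios were Jun in GABAergic neurons with equal weights (-0.023), Egr1 in progenitors at resolution 2 (0.069), Fos (0.0031) and Egr1 (0.16) in progenitors and Junb (0.52) and Egr1 (0.24) in radial glia without the Tph1-led cells, and Junb in the Rgs5 cluster alone (0.17). Other than where cells or genes were left out by construction, the cause was not tested. Among all measured genes in progenitors, 22 of 6906 were lower as reported. With the total that left out those genes 28 of 7575 were lower, and with doublets kept 25 of 6962. Shares of all genes are not given for no filter, for the 2-fold rule or for intervals under other settings. Counts of members there have no background beside them and are not read as results about the members. Leaving out clusters or Tph1-led cells was chosen after the data were seen. Arc, at 47 and 90 UMIs, is limited by depth.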

Other observations

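In microglia and macrophages, early factors outside the members were Egr3, at 80.1 CPM in the knockout-labelled and 45.2 CPM in the wild-type library (0.83), Egr2, at 48.1 and 31.4 CPM (0.62), and Ier2, at 277 and 433 CPM (-0.64). Over all cells, Klf2 (28.0 and 13.1 CPM, 1.10) and Atf3 (20.7 and 11.9 CPM, 0.79) were called higher, where 0.442% of 7012 measured genes were. Both genes reached the minimum of 20 CPM only in the knockout-labelled library, so they could only be called higher. These sums mix classes of unequal share. Microglia and macrophages, for instance, were 1.23% of the knockout-labelled and 0.807% of the wild-type cells. The part of such shares in these values was not tested. In GABAergic neurons the granin Scg2 was at 36.5 and 10.1 CPM (1.86). Scg2 was a leading gene of cluster 18, which held 388 of the 3595 knockout-labelled and 145 of the 2074 wild-type GABAergic neurons. The part of this make-up in the Scg2 value was not tested. All genes named in this paragraph were chosen after their values were seen.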
